A study of Mus musculus with 4 samples.

Results

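The proteasome genes described here are the genes of the deposited table whose symbols begin with Psma to Psmg and a digit, without Psmb8 and Psmb9. They number 46 of 15093 genes. By their textbook roles, 15 encode the 20S core, 21 encode the regulatory caps that bind to its ends, and 8 encode assembly factors or regulators of the particle. The other 2 match by name alone: Psmc3ip encodes a factor of meiotic recombination, and Psme2b is a near copy of Psme2. All 46 are kept in the counts and sums below.

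The proteasome is the large protease that breaks down proteins tagged with ubiquitin. Its core is a stack of rings of alpha subunits, which gate the entrance, and beta subunits, of which Psmb5, Psmb6 and Psmb7 cut. Lymphocytes can replace these by the inducible subunits Psmb8, Psmb9 and Psmb10, forming the immunoproteasome, whose peptides are loaded on MHC class I. The 19S cap holds ATPases (Psmc genes), which unfold the substrate and thread it into the core, and non-ATPase subunits (Psmd genes), which bind and remove ubiquitin. The alternative caps PA28 (Psme1 and Psme2 in the cytosol, Psme3 in the nucleus) and PA200 (Psme4) open the core without ATP.

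The mice were female C57BL/6 wild-type animals aged 3.2 ± 0.3 months. Both treated mice (treated mouse 1, Maus3_2, and treated mouse 2, Maus6) received non-thermal plasma (NTP), a jet of partly ionized argon near body temperature, on the ear for 10 min under anaesthesia. Anaesthesia alone was given to the untreated mice (untreated mouse 1, Maus2_2, and untreated mouse 2, Maus4_2). Blood was drawn 120 min after the end of exposure in treated mice, and in untreated mice 120 min after anaesthesia began. The time since anaesthesia began thus differed between the groups and cannot be told apart from treatment. Mononuclear cells were sequenced from the 3' end of their transcripts with unique molecular identifiers (UMIs), which mark single RNA molecules.

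Between 993 and 1705 cells per mouse, 5794 in all, gave 4653719 to 7093148 UMIs per mouse, with median UMIs per cell of 3104.5 to 4480.5. By the authors' annotation 474 cells were plasmablasts, 3130 were B cells, 600 were CD8+ T cells and 1517 were CD4+ T cells. A further 73 were NK cells, 13 to 22 per mouse, and were not tested. The B cell and T cell markers separated the annotated B cells from both T cell types. In the annotated NK cells 5 T cell markers summed to 1987 to 2397 UMIs per 1000000 UMIs (CPM), as in T cells (2162 to 2502). Of 5 NK cell markers, Ncr1 and Klrb1c had 1 UMI each there, and all 55 UMIs of Gzma came from treated mouse 1. Nkg7 was higher than in CD8+ T cells (505.1 to 678.9 against 237.3 to 290.7). Klrd1 overlapped with them (242.4 to 395.0 against 213.1 to 302.4). The 5 NK cell markers summed to 754 to 1301, against 450 to 596 in CD8+ T cells. The annotated plasmablasts held more of 5 B cell markers (6501 to 8209 CPM) than the B cells (4039 to 4539), Jchain was at 0 UMIs and Mzb1 lay at 160.6 to 199.6 against 154.0 to 195.7 in B cells. They are therefore called annotated plasmablasts here. In the annotated plasmablasts of untreated mouse 1, 5 red blood cell markers summed to 3713 CPM, against 13.7 to 113.2 in the other mice. 4 barcodes occurred in more than 1 library, 8 cells in all.

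In each of the 4 types tested, the median of the proteasome genes was well above the median of all genes with a count. Levels are CPM of a mouse and type, given as mean ± SD of 4 mice. Each molecule is counted once near its 3' end, so the level is not divided by gene length. The median level of the 46 genes was 66.8 in annotated plasmablasts, 60.1 in CD4+ and 53.2 in CD8+ T cells, and 52.9 in B cells. In B cells 80.7% of the 14605 genes with a count lay below the median of the proteasome genes. The order of the genes was much the same in each type, with Spearman's rho across the 46 genes between 0.94 and 0.98. Genes are not independent replicates, and the types come from the same 4 libraries.

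In B cells the alpha ring ranged from Psma4, at 48.3 ± 5.7, to Psma3, at 188.2 ± 10.8. All 7 alpha subunits stand in equal number in the finished ring, while their UMI levels spanned 3.89-fold. Psma5 (50.3 ± 5.0), Psma1 (80.9 ± 4.3) and Psma6 (83.4 ± 4.9) lay in the lower part of this range, and Psma7 (111.0 ± 7.9) and Psma2 (150.5 ± 3.2) in the upper. Among the structural beta subunits Psmb4 stood at 88.0 ± 11.6, Psmb2 at 97.1 ± 4.3 and Psmb3 at 108.4 ± 2.2. Psmb1 was the highest core gene, at 221.2 ± 19.8. The cutting subunits were lower, with Psmb5 at 51.0 ± 7.1, Psmb7 at 61.1 ± 7.7, Psmb10 at 67.0 ± 2.9 and Psmb6 at 81.2 ± 9.0. The ranges over mice of Psmb5, Psmb7, Psmb10 and Psmb6 overlapped between neighbours in this order.

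The cap genes were mostly lower than the core genes. Among the ATPases, B cells held Psmc4 at 37.5 ± 5.2 and Psmc6 at 69.7 ± 1.4, with Psmc5 (43.8 ± 5.0), Psmc2 (44.1 ± 2.8), Psmc1 (54.8 ± 3.7) and Psmc3 (64.1 ± 4.4) between them. Of the non-ATPase subunits with a Psmd name, Psmd14, the deubiquitinase of the lid, was highest at 116.6 ± 7.4. The ubiquitin receptor Psmd4 followed at 87.7 ± 2.6, then Psmd8 at 79.1 ± 7.5 and Psmd11 at 68.2 ± 6.6. Psmd3, at 20.6 ± 1.0, was the lowest of these Psmd subunits, and Psmd6, Psmd2, Psmd1, Psmd7, Psmd12 and Psmd13 lay between 26.9 and 44.1. Subunits under other names are not part of this ranking. Summed over the base and lid genes, the cap held 0.607 ± 0.012 UMIs for each UMI of the core genes in B cells and 0.645 ± 0.009 in CD4+ T cells. The 4 mice of these 2 types did not overlap, at 0.591 to 0.620 in B cells and 0.635 to 0.653 in CD4+ T cells.

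The activator genes covered the widest range of any role, 13.3-fold in B cells and 19.0-fold in CD8+ T cells. Psme1, at 237.3 ± 17.9 in B cells, had the highest mean of all 46 genes in each of the 4 types, and Psme3, at 17.8 ± 3.0, was the lowest of the 4 activators. Psme2, whose protein joins with that of Psme1 in 1 ring, was lower, at 66.3 ± 7.0 in B cells. The ratio of Psme1 to Psme2 UMIs was 3.60 ± 0.28 in B cells and 2.21 ± 0.08 in CD4+ T cells, with no overlap of the mice.

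Assembly factors were the lowest group. In B cells the core chaperones Psmg1 (11.1 ± 2.9), Psmg3 (11.8 ± 1.4) and Psmg2 (20.5 ± 2.8) and the cap chaperones Psmd10 (16.3 ± 4.2), Psmd5 (19.2 ± 2.6) and Psmd9 (35.8 ± 5.1) all lay below the median of the 46 genes. Psmg4, also a core chaperone, stood apart at 70.3 ± 1.5, and the inhibitor or adaptor Psmf1 at 34.6 ± 3.0. The name matches were near the floor, with Psme2b between 3.96 and 7.05 and Psmc3ip between 1.84 and 4.46 over the mice. Of the windows of 31 bases in the 837-base transcript of Psme2b, 76.5% occur in a Psme2 transcript, so UMIs of both genes cannot be told apart with certainty.

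**Figure D1:**
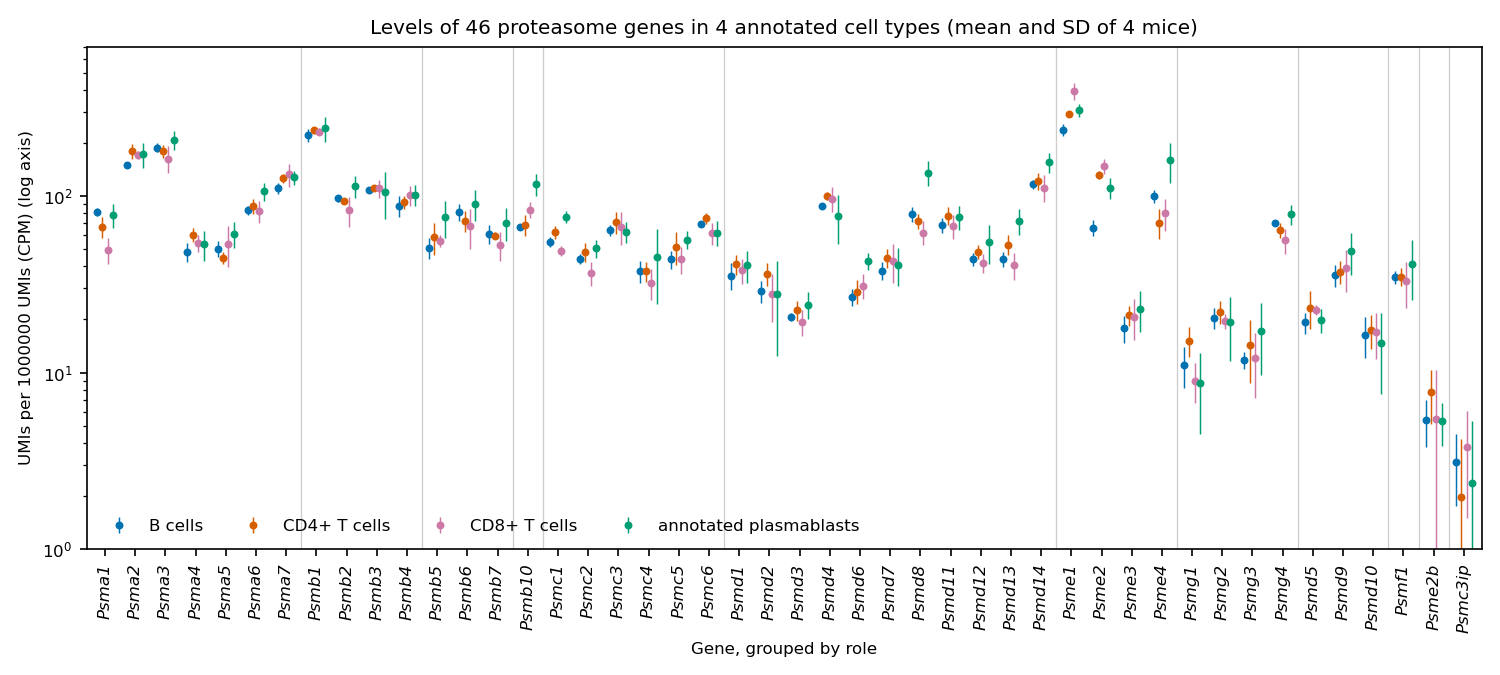
Level of each of the 46 genes in CPM (log axis), grouped by role, with a point for the mean and a bar for the SD of 4 mice in each of 4 annotated types. Bars that reach below 1 are cut at the axis. Psme1 is the highest gene in every type, the assembly factors other than Psmg4 lie low, and the means of the types lie farthest apart for Psme4 (2.27-fold), Psme2 (2.23-fold) and Psmd8 (2.18-fold).

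The summed level spanned 1.21-fold over the 4 types, a wider span than that of 13 single genes and a narrower one than that of the other 33. All 46 genes took 0.368% ± 0.019 of the UMIs in annotated plasmablasts, 0.328% ± 0.011 in CD4+ and 0.323% ± 0.016 in CD8+ T cells, and 0.304% ± 0.007 in B cells. The mice were at 0.314% and 0.304% (treated) and 0.299% and 0.299% (untreated) for B cells, and at 0.393%, 0.357%, 0.349% and 0.373% in the same order for annotated plasmablasts. The annotated plasmablasts thus lay above the B cells in each mouse, without overlap. This order depends on the total used. When mitochondrial and ribosomal protein genes were left out of it, annotated plasmablasts (0.493%) fell below CD4+ T cells (0.534%) and CD8+ T cells (0.567%), and B cells (0.442%) stayed lowest of these 4. Counted per cell the genes gave 18.8 ± 3.3 UMIs in CD8+ T cells, 15.3 ± 3.0 in CD4+ T cells, 13.2 ± 1.9 in annotated plasmablasts and 11.0 ± 2.0 in B cells. The median UMIs of all genes per cell were 5555.5, 4429, 3381.5 and 3364 in the same order.

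Without Psme1 and Psme2, the sums in the 2 T cell types were 0.286% ± 0.010 (CD4+) and 0.268% ± 0.011 (CD8+), against 0.274% ± 0.005 in B cells. These ranges overlapped, but in each of the 4 mice the CD4+ T cells lay above the B cells. Psme1 and Psme2 together took 0.0543% ± 0.0060 in CD8+ T cells, 0.0424% ± 0.0013 in CD4+ T cells, 0.0418% ± 0.0023 in annotated plasmablasts and 0.0304% ± 0.0024 in B cells. All mice of both T cell types lay above all B cell values for this pair.

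CD4+ T cells were compared with B cells of the same mice over 9229 genes. The annotation was drawn by the authors from the same counts, so differences between types are descriptive of these labels. Of the 46 genes, 44 passed the filter on low counts, and Psme2b and Psmc3ip did not. 12 of the 44 were higher in CD4+ T cells (background 25.7% of all genes tested) and 1 was lower (background 26.4%) at an adjusted p under 0.05. The share called higher was near the background, while the share called lower was far under it. At an unadjusted p under 0.05, 18 were higher and 1 was lower (background 56.8% in either direction). The median log2 fold change was 0.19 over the 44 genes and 0.00 over all genes.

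Psme2 and Psme1, the cytosolic PA28 genes, had the smallest adjusted p of the 44, while Psme3 was not called. Psme2 stood at 74.9, 64.4, 67.8 and 58.1 in the B cells of treated mice 1 and 2 and untreated mice 1 and 2, and at 138.3, 136.5, 123.7 and 129.6 in their CD4+ T cells. The lowest CD4+ T cell value was far above the highest B cell value, and the log2 fold change was 1.06 ± 0.09 (SE, adjusted p = 1.04e-17). Psme1 differed by less, with B cells between 225.2 and 263.8 and the T cells between 283.1 and 299.4, again without overlap (log2 fold change 0.37 ± 0.06, adjusted p = 8.7e-07). Psme4, the gene of PA200, was the only one lower. It stood at 98.6, 88.4, 106.4 and 104.5 in B cells and at 61.1, 65.4, 90.7 and 64.5 in CD4+ T cells (log2 fold change -0.44 ± 0.10, adjusted p = 0.000105). The CD4+ T cells of untreated mouse 1 lay apart from the other 3 and above the lowest B cell value, but in each mouse the CD4+ T cells lay below the B cells.

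Core genes that were higher in CD4+ T cells were the alpha subunits Psma2 (0.33 ± 0.08), Psma4 (0.40 ± 0.12) and Psma7 (0.25 ± 0.08) and the beta subunit Psmb1 (0.16 ± 0.07). Cap genes that were higher were the ATPase Psmc5 (0.33 ± 0.13) and the non-ATPase subunits Psmd2 (0.42 ± 0.15), Psmd4 (0.26 ± 0.09), Psmd7 (0.32 ± 0.13), Psmd11 (0.25 ± 0.10) and Psmd13 (0.32 ± 0.13), all as log2 fold change ± SE. None of the 8 assembly genes tested was called in either direction, and 7 of them had a positive log2 fold change. Of the standard cutting subunits, Psmb5 (0.26 ± 0.12), Psmb6 (-0.08 ± 0.11) and Psmb7 (0.05 ± 0.11) did not pass, nor did Psmb10 (0.11 ± 0.10).

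Psme1, Psme2, Psme4 and Psma2 were called in all 8 alternatives run. Leaving out treated mouse 1 or treated mouse 2 ended the calls of Psmb1, Psmc5, Psmd2 and Psmd7, and the former also those of Psmd4 and Psmd11, the latter those of Psma4 and Psmd13. Leaving out untreated mouse 1 ended those of Psma7, Psmb1, Psmc5, Psmd11 and Psmd13, and leaving out untreated mouse 2 those of Psmd11 and Psmd13. Without the block for the mouse 8 of the 44 genes were called.

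The share of proteasome genes called higher in CD8+ than in CD4+ T cells was near the background. 3 of 44 were higher (background 6.56%) and 0 were lower (background 5.10%), with 7 and 2 at an unadjusted p under 0.05 (background 21.5% in either direction), and DESeq2 called 2 and 0. Psme1 stood at 459.2, 391.6, 353.7 and 373.9 in CD8+ T cells, above 283.1–299.4 in CD4+ T cells in every mouse (log2 fold change 0.56 ± 0.07, adjusted p = 1.07e-09). Psmb10, the inducible counterpart of Psmb7, was higher at 91.8, 89.1, 72.6 and 81.8 against 73.9, 59.1, 62.8 and 78.7 (0.42 ± 0.13, adjusted p = 0.0141), and was higher in each mouse although these ranges overlapped. The call of Psmb10 was lost without treated mouse 1 and without treated mouse 2. Psme2 was called at 0.28 ± 0.10 (adjusted p = 0.0384). This call was lost without any 1 of the 4 mice, in DESeq2, with no filter on low counts and without the block for the mouse. Of the alternatives run, only RLE scaling kept it. Psmb5, Psmb6 and Psmb7 stood at 0.06 ± 0.15, -0.04 ± 0.15 and -0.05 ± 0.15.

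The annotated plasmablasts were compared with B cells in the same fit. 8 of 44 genes were higher (background 8.53%) and 0 were lower (background 8.09%), with 10 and 0 at an unadjusted p under 0.05 (background 28.2% in either direction), and DESeq2 called 7 and 0. Psmb10 showed the largest difference, at 136.8, 112.4, 96.5 and 123.2 in annotated plasmablasts against 63.9–70.8 in B cells, with no overlap (0.74 ± 0.13, adjusted p = 1.28e-05). Psmd8, a subunit of the lid, stood at 138.3, 136.5, 107.2 and 160.9 against 71.3–86.5 (0.67 ± 0.13, adjusted p = 3.17e-05). Again every annotated plasmablast value was above every B cell value.

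Psme4, which was lower in CD4+ T cells, was higher here, at 141.5, 124.4, 153.7 and 219.1 against 88.4–106.4 in B cells (0.55 ± 0.12, adjusted p = 0.000415). Its highest value came from untreated mouse 2. Psme2 (0.60 ± 0.13) and Psmd13 (0.59 ± 0.17) were also higher and, like Psmb10, Psmd8 and Psme4, were called in all 8 alternatives. Psmb5 (0.51 ± 0.16), Psme1 (0.27 ± 0.08) and Psmd14 (0.32 ± 0.11) were called as well, but each of these calls was lost without treated mouse 1 and without treated mouse 2, and that of Psmd14 also without untreated mouse 2. Psmb6 (0.11 ± 0.15) and Psmb7 (0.08 ± 0.16) did not pass.

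**Figure D2:**
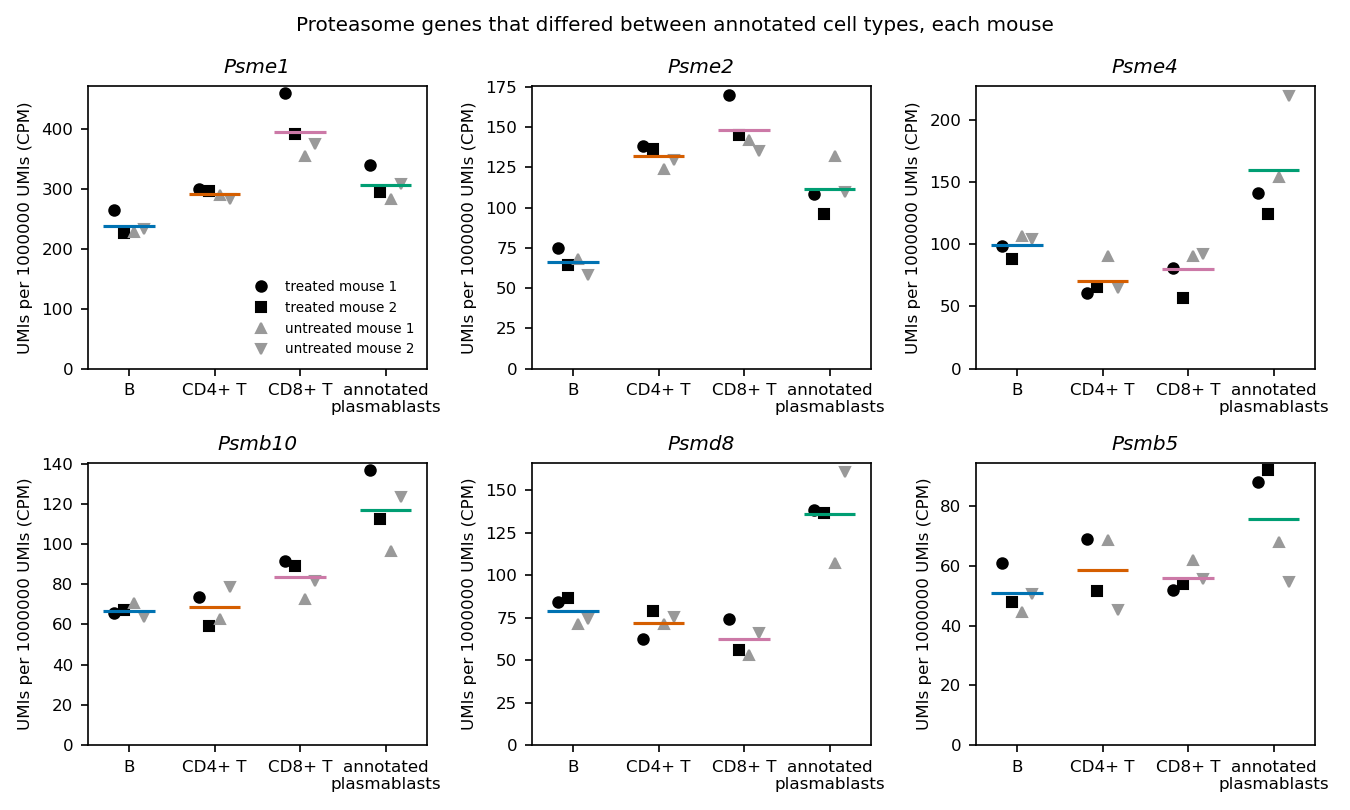
CPM of 6 genes in each of the 4 annotated types, with a symbol for each mouse (black treated, grey untreated) and a line for the mean of 4 mice. Psme1 means increase from B cells over CD4+ to CD8+ T cells, Psme2 is lowest in B cells, and Psmb10, Psmd8 and Psme4 are highest in annotated plasmablasts, where Psme4 of untreated mouse 2 lies far up at 219.1.

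The authors' clusters split the annotated plasmablasts mainly into cluster 6, with 340 of them, and cluster 9, with 109. Cluster 6 alone, in a fit chosen after the data were seen, gave 9 genes called higher (background 10.7%) and 0 lower (background 10.9%), including all 8 above and the lid subunit Psmd6, with 11 and 0 at an unadjusted p under 0.05 (background 32.0% in either direction). Cluster 9 alone gave 0 higher and 0 lower of 44, in a fit that called few genes of any kind (background 0.0433% higher and 0.292% lower). At an unadjusted p under 0.05 it had 0 higher and 3 lower (background 10.2% in either direction). Of the 8 genes, Psmd8 (0.49), Psme2 (0.25), Psmb10 (0.15), Psme4 (0.012) and Psmd14 (0.0061) had log2 fold changes above 0 there, and Psmd13 (-0.11), Psmb5 (-0.17) and Psme1 (-0.22) below 0. In that fit the median of all genes lay at -0.23, and cluster 9 held only 22 to 30 cells per mouse.

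Over the 12 clusters the summed level ranged from 0.286% ± 0.009 in cluster 2, a B cell cluster, to 0.388% ± 0.020 in cluster 6. Cluster 2 (0.277% to 0.297%) lay below both other large B cell clusters, cluster 0 (0.297% to 0.312%) and cluster 1 (0.306% to 0.336%), in each mouse. Among clusters mainly of CD4+ T cells, cluster 8 (0.380% ± 0.014, 20 to 44 cells per mouse) stood above clusters 3, 5 and 7, whose highest value was 0.345%, without overlap. Its sum is over all 144 cells, of which 137 were annotated as CD4+ T cells. In treated mouse 2, 2 annotated B cells held 14587 UMIs there, beside 73616 in the CD4+ T cells. In untreated mouse 2, 3 B cells held 18911 and 1 CD8+ T cell 9164, beside 146473. Cluster 9 was at 0.319% ± 0.029. Its value in treated mouse 2, 0.277%, was as low as cluster 2.

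Single genes were compared in cluster 8 where their mean over it and clusters 3, 5 and 7 was at least 5 CPM. Of these 45 genes, 0 had all 4 mice above all mice of clusters 3, 5 and 7 (background 2.20%). Likewise 0 had them below (background 0.643%), and both counts were near the background. Cluster 6 had 3 of 45 genes, Psmb10, Psmd6 and Psme2, with all mice above all mice of clusters 0, 1 and 2 (background 6.18%) and 0 below (background 2.33%). These counts, too, were near the background. Psmb10 was at 134.6 ± 20.4 in cluster 6 and at 79.0 ± 38.2 in cluster 9. The B cell clusters also differed among themselves in Psme4, which stood at 62.2 ± 9.6 in cluster 1 and at 95.1 ± 12.5 in cluster 0. In cluster 2, the cluster with the lowest sum, it stood at 131.7 ± 9.1. Cluster 2 had 2 of 45 genes, Psmd14 and Psme4, with all mice above all mice of clusters 0 and 1 (background 14.9%). Below them were 4 genes, Psma5, Psmd8, Psmb10 and Psmb3 (background 3.38%). Clusters were built by the authors from the same cells, so these values are a description and were not tested.

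**Figure D3:**
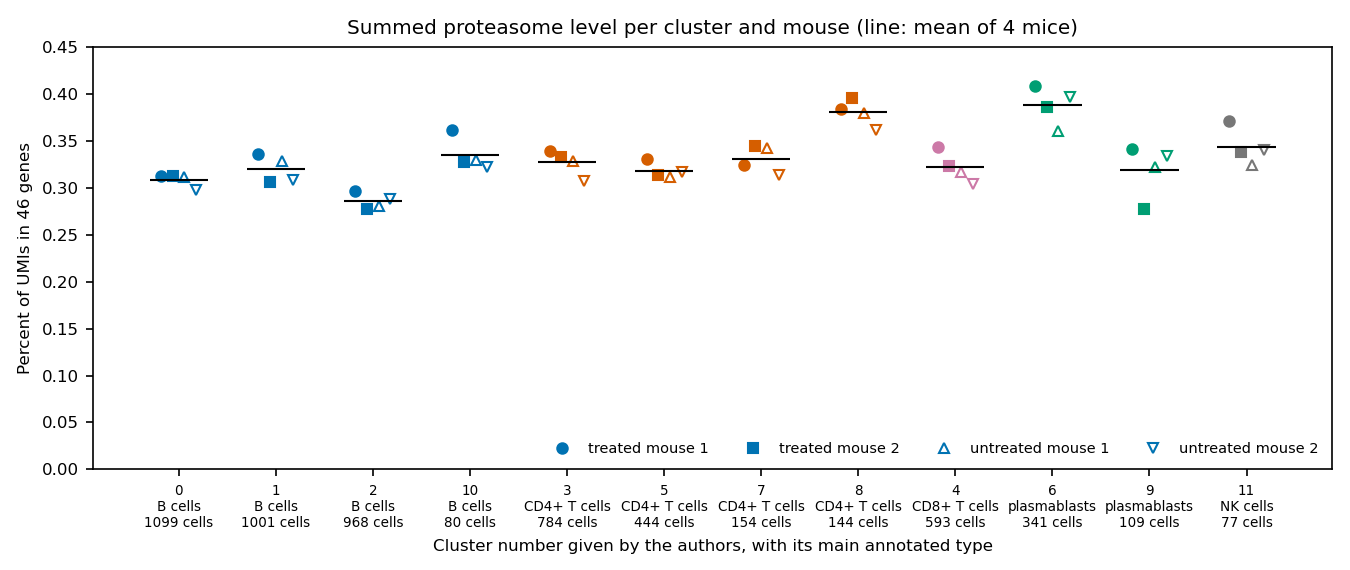
Percent of UMIs in the 46 genes for each of the authors' 12 clusters, labelled with the main annotated type and number of cells, with a symbol for each mouse (filled treated, open untreated) and a line for the mean. Clusters 6 and 8 have the highest means, 0.388% and 0.380%, and cluster 2 the lowest, 0.286%.

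Within the catalytic pairs, the inducible subunit was the more abundant for Psmb5, since Psmb8 gave 4.21 ± 0.38 UMIs for each UMI of Psmb5 in B cells and 4.52 ± 0.34 in CD8+ T cells. For Psmb9 to Psmb6 the ratio was 1.11 ± 0.19 in B cells and 1.68 ± 0.42 in CD8+ T cells, and for Psmb10 to Psmb7 it was 1.11 ± 0.12 and 1.62 ± 0.26. Summed over the 3 pairs, inducible to standard UMIs stood at 2.54 ± 0.28 in CD8+ T cells, 2.01 ± 0.15 in CD4+ T cells, 1.96 ± 0.17 in annotated plasmablasts and 1.91 ± 0.18 in B cells. The CD8+ T cell values, 2.23 to 2.88, lay above all B cell values, which reached 2.11.

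Promoters were also read. Psme1 is a known target of interferon signalling, and subunit genes as a group are known targets of NRF1 (Nfe2l1). RefSeq promoters (GRCm38.p6, 250 bases before to 50 after the start) were matched by symbol for 39 of the 46 genes, called or not. On both strands, TTTCNNTTTC, a pattern of interferon response elements, was present in 5 of 39 (12.8%) and in 3.49% of all 27025 promoters. TGACNNNGC, a pattern of antioxidant response elements, which NRF1 and NRF2 bind, was present in 6 of 39 (15.4%) and in 12.5% of all. Among the 11018 genes of the table with a promoter, the first pattern was in 3.26%. The second was in 14.9% of them, near the 15.4% above. The 5 windows of 30 bases with the first pattern are shown on the gene's strand, with the match in capitals, because they include Psme1, which was called in all 3 comparisons of types:
Psme1: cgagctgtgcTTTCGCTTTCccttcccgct
Psmb3: cacagtgactTTTCACTTTCcgctttccat
Psmd4: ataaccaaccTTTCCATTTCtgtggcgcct
Psmd9: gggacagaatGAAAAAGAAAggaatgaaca
Psmg4: gcgcgcatctGAAAGTGAAAgagcgttccg

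The Psme1 window lies at chr14:55578493-55578522 (+), and its match begins 9 bases after the RefSeq start. Psme2, whose start lies close by on the same chromosome, had no match to either pattern in its window. In the reported fit it too was called in all 3 comparisons of types, though most alternatives lost its call between CD8+ and CD4+ T cells. Psmb3 (chr11:97703261-97703290, +), Psmd4 (chr3:95042675-95042704, -), Psmd9 (chr5:123228021-123228050, +) and Psmg4 (chr13:34162969-34162998, +) hold the other windows. Psmd4, like Psme1, was called higher in CD4+ T cells than in B cells, and Psmb3, Psmd9 and Psmg4 were called in no comparison of types. The second pattern is shown for the 3 genes among its 6 that belong to the cutting subunits or were called in a comparison of types:
Psmb5: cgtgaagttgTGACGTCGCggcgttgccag
Psmb6: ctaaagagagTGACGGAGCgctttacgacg
Psme4: cgctgcggctGCAGCGTCAccagaagagcc

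These windows lie at chr14:54618023-54618052 (-), chr11:70525338-70525367 (+) and chr11:30771758-30771787 (+). Psmc6, Psmd12 and Psmd9 also held this pattern. In annotated plasmablasts against B cells Psme4 and Psmb5 were called higher, and Psmd9 (0.35 ± 0.20), Psmd12 (0.20 ± 0.18), Psmb6 (0.11 ± 0.15) and Psmc6 (-0.27 ± 0.16) did not pass. In CD4+ T cells against B cells Psme4 was lower and the other 5 were not called. TTCNNNGAA, a pattern of gamma activated sites, was in 2 of 39 promoters (5.13%) and 8.47% of all. CCAAT was in 13 of 39 (33.3%) and 37.9% of all, and GGGCGG in 22 of 39 (56.4%) and 35.9% of all, or 60.3% of the 11018 genes of the table with a promoter. A match is a run of letters and was not tested as a site, nor as a cause of any difference between types.

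Treatment was compared within each type, 2 treated against 2 untreated mice. No proteasome gene was called in any type. Annotated plasmablasts had 0 of 38 called (background 0.0186%) and CD8+ T cells 0 of 43 (background 0.0294%). CD4+ T cells had 0 of 45 called (background 0.00%, 0 of 8680 genes) and B cells 0 of 46 (background 0.00%, 0 of 9903 genes). Psmc3ip did not pass the filter on low counts in CD4+ T cells, Psmc3ip, Psme2b and Psmg1 did not in CD8+ T cells, and in annotated plasmablasts these 3 and Psmd5, Psmd10, Psme3, Psmg2 and Psmg3 did not. DESeq2 called 0 of them in each type too. At an unadjusted p under 0.05 edgeR had 2 higher and 1 lower in annotated plasmablasts (background 6.79% in either direction), 4 higher in CD8+ T cells (background 8.44%), 3 higher in CD4+ T cells (background 4.79%) and 0 in B cells (background 4.65%). The shares in annotated plasmablasts, CD8+ and CD4+ T cells were near the background. The smallest p that an exact permutation test allows for 1 value with 2 mice per group is 0.33. The median standard error of the log2 fold changes was 0.29 in annotated plasmablasts, 0.24 in CD8+, 0.17 in CD4+ T cells and 0.14 in B cells, so small changes could not be seen.

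The genes with the smallest unadjusted p in B cells were Psmd8 (log2 fold change 0.27 ± 0.13), the cap chaperone Psmd10 (0.52 ± 0.26) and Psmd11 (0.25 ± 0.13) among the positive ones, and Psmc3ip (-1.10 ± 0.57), Psmb7 (-0.24 ± 0.14) and Psmd1 (-0.30 ± 0.19) among the negative ones. Psmd8 stood at 84.5 and 86.5 in treated and 71.3 and 74.2 in untreated mice. Adjusted p was 0.934 for each of these 6. In CD4+ T cells Psmc5 stood at 61.6 and 58.5 in treated and 49.2 and 37.4 in untreated mice (0.52 ± 0.17, adjusted p = 0.903). Psma2 (0.28 ± 0.11) and Psmb6 (0.34 ± 0.14) followed, and Psmg3 (-0.59 ± 0.35), Psme4 (-0.25 ± 0.18) and Psmg1 (-0.40 ± 0.29) were the negative ones with the smallest p.

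In CD8+ T cells Psma5 stood at 69.9 and 58.5 in treated and 37.8 and 47.7 in untreated mice (0.64 ± 0.25, adjusted p = 0.537). Psme1, at 459.2 and 391.6 against 353.7 and 373.9, had a log2 fold change of 0.31 ± 0.13, and Psmd4 one of 0.44 ± 0.19. In annotated plasmablasts Psmb3 stood at 127.3 and 136.5 against 82.2 and 75.3 (0.77 ± 0.26, adjusted p = 0.668), and Psmd4 at 102.2 and 92.3 against 64.3 and 51.3 (0.79 ± 0.29, adjusted p = 0.71). The treated mice of these 4 genes lay above the untreated mice, but none passed the threshold. Psmb5 had a log2 fold change of 0.59 ± 0.29 in annotated plasmablasts and Psma3 one of -0.23 ± 0.18.

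Psme4 was below 0 in all 4 types, at -0.45 ± 0.21 in annotated plasmablasts, -0.35 ± 0.21 in CD8+, -0.25 ± 0.18 in CD4+ T cells and -0.14 ± 0.12 in B cells, but the value in CD4+ T cells was 0.021 without untreated mouse 1. Psmf1 was at -0.62 ± 0.31 in CD8+ T cells and -0.74 ± 0.42 in annotated plasmablasts, and Psmd14 at -0.15 ± 0.19 in CD8+ T cells, a value that became 0.032 without treated mouse 2 and 0.050 without untreated mouse 1. The inducible Psmb10 ranged over the 4 types from -0.03 to 0.31, Psmb7 from -0.37 to 0.11, Psme1 from 0.11 to 0.31 and Psme2 from -0.20 to 0.27. The types come from the same mice, so a shared sign is not independent evidence.

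Both treated mice lay above both untreated mice for 15 of 45 genes in CD4+ T cells (background 13.3%) and 13 of 43 in CD8+ T cells (background 12.6%). In B cells 12 of 46 did (background 14.5%), and in annotated plasmablasts 10 of 38 (background 16.6%). Genes with both treated mice below numbered 5 in CD4+ T cells (background 21.9%) and 4 in CD8+ T cells (background 26.1%), 6 in B cells (background 20.2%) and 7 in annotated plasmablasts (background 20.1%). Psma5 and Psmb1 alone had this order upwards in 3 of the 4 types, and Psma5 had the opposite order in CD4+ T cells. Cluster 2 had the lowest sum, and more Psme4 than clusters 0 and 1. It held 285 of 833 and 187 of 958 B cells in treated mice 1 and 2. In untreated mice 1 and 2 it held 234 of 498 and 258 of 841. Within cluster 0 the sums were 0.3121% and 0.3123% (treated) and 0.3116% and 0.2972% (untreated). In the same order cluster 1 stood at 0.336%, 0.306%, 0.329% and 0.308%, and cluster 2 at 0.297%, 0.277%, 0.280% and 0.288%. Whether this mix bears on the treatment values was not tested. The median log2 fold change of the genes was 0.20 in CD8+ T cells, 0.11 in CD4+ T cells and 0.09 in both B cells and annotated plasmablasts, against 0.00 to 0.01 over all genes. Log2 fold changes had a positive sign in 34 of 43, 32 of 45, 33 of 46 and 25 of 38 genes in these types. Of all genes tested, 50.4% to 51.1% had one. Neither the genes nor the types are independent replicates, since all come from the same mice, so these counts are a description.

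Gene length moved with this shift of the medians. Over all genes the log2 fold change fell with the length of the gene, with a Spearman's rho across genes between -0.33 and -0.27 in the 4 types. The proteasome genes are short, with a median span of 12062 bases against 24662 for all genes tested in B cells. Once the trend with length was removed by a local fit, the medians were 0.14 in CD8+ and 0.06 in CD4+ T cells, 0.05 in B cells and 0.03 in annotated plasmablasts. In the same order 33 of 43, 29 of 45, 28 of 46 and 20 of 38 genes then had a positive sign. Length as a cause of the shift was not tested.

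The treatment effect in CD4+ T cells was also tested against that in B cells. By edgeR 0 of 45 genes were called (background 0.00986%), with 3 positive and 0 negative at an unadjusted p under 0.05 (background 3.89% in either direction), and 0 by DESeq2. The median of the 45 genes was -0.03, and 24 of them were negative. Psmb6 (0.44 ± 0.19), Psmd5 (0.71 ± 0.33) and Psmc5 (0.52 ± 0.24) were the positive ones with the smallest p, as a difference of log2 fold changes, and Psmg3 (-0.85 ± 0.44), Psmd8 (-0.28 ± 0.19) and Psma5 (-0.33 ± 0.23) the negative ones, all with an adjusted p of 1.

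**Figure D4:**
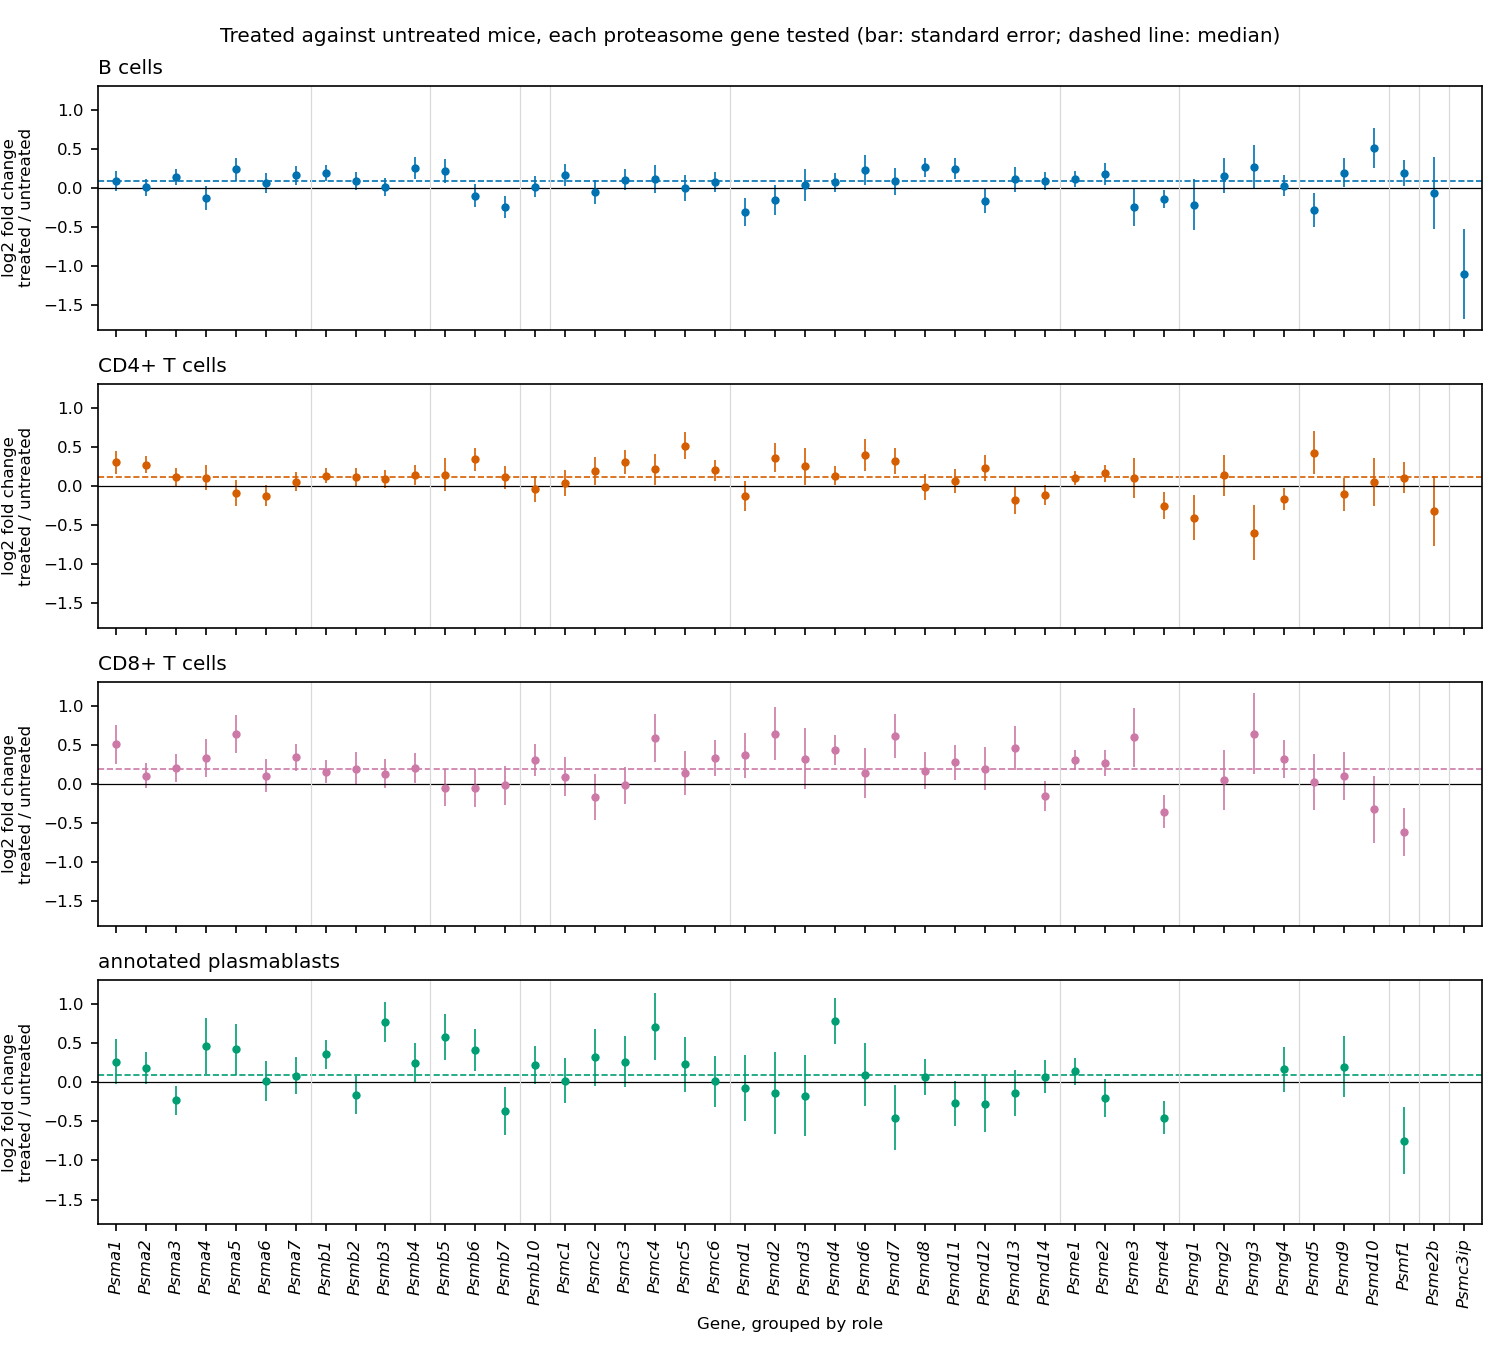
Log2 fold change of treated against untreated mice for each gene tested in each of 4 annotated types, with a bar for the standard error, a dashed line for the median of the genes and a solid line at 0. Most points lie a little above 0 (medians 0.09, 0.11, 0.20 and 0.09) with bars that are wide for the low assembly genes, and no gene passed the threshold.

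A wider list of genes around the proteasome, of which 32 are reported, was described in the same fits. It holds assembly factors and subunits under other names, the inducible subunits left out above, regulators of transcription, ubiquitin genes and their partners. In CD4+ T cells against B cells 8 of 32 were higher (background 25.7%) and 6 lower (background 26.4%), both near the background. Pomp, the assembly factor that matures the core, was higher (0.68 ± 0.10, adjusted p = 7.19e-09), at 87.1–117.5 against 55.4–74.2 in B cells, and so was Psmb9 (0.29 ± 0.09, adjusted p = 0.00373). Nfe2l1, the transcription factor of subunit genes, was lower (-0.76 ± 0.17, adjusted p = 9.97e-05), at 13.8–21.4 against 24.3–36.2. Rps27a, which encodes ubiquitin fused to a ribosomal protein, was higher (0.57 ± 0.04), and Zfand5, a factor that binds the proteasome, was lower (-0.86 ± 0.12). Psmb8 stood at 0.04 ± 0.07 and did not pass.

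In CD8+ against CD4+ T cells 3 of 32 were higher (background 6.56%) and 0 lower (background 5.10%). The 3 were Psmb8 (0.38 ± 0.08, adjusted p = 0.000182), Rps27a (0.27 ± 0.04) and Ubb (0.21 ± 0.05). In annotated plasmablasts against B cells 1 was higher (background 8.53%), Ecpas (0.52 ± 0.12), a protein that tethers the cap to the core, and 2 were lower (background 8.09%), Rps27a (-0.42 ± 0.04) and Uba6 (-0.62 ± 0.21).

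By treatment, edgeR and DESeq2 each called 0 of these 32 genes in any type. At an unadjusted p under 0.05 (backgrounds as for the proteasome genes above), edgeR gave 2 positive and 2 negative of 31 tested in CD8+ T cells, 3 and 0 of 32 in CD4+ T cells, 1 and 0 of 32 in B cells, and 1 and 1 of 28 in annotated plasmablasts. DESeq2 gave 2 positive in CD8+ T cells, 1 each in CD4+ T cells and B cells, and 0 in annotated plasmablasts. Ubb, a gene of polyubiquitin, had a log2 fold change of 0.35 ± 0.11 in CD8+ T cells (adjusted p = 0.491), and Psmb9 one of 0.39 ± 0.12 in CD4+ T cells (adjusted p = 0.903).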

How the data were processed

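UMI counts per cell, deposited by the authors as whole numbers, were summed per mouse and annotated type. The authors' table of cells gave type, cluster and the percent of mitochondrial counts. Per the paper's methods, libraries were aligned to mm10, ambient RNA was removed with SoupX, and low-quality cells and doublets were filtered. Cell Ranger 7.1.0 and Seurat 4.3.0 are named in the submitters' processing notes. It is not stated whether SoupX had been applied to these counts. No doublet caller was run again. 0 columns of values were left unused.

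edgeR 4.0.16 (R 4.3.3) fitted quasi-likelihood models with TMM scaling after its filter on low counts, with Benjamini-Hochberg adjustment over all genes tested (threshold 0.05). Types were compared in 1 model with a block for the mouse, since the types of 1 mouse come from the same animal. Deviations from the type means of the same mouse correlated across genes at 0.04 to 0.17. Treatment was fitted within each type having at least 20 cells in every mouse. The 4 mice are separate animals. The self-test ran on simulated counts. DESeq2 1.42.0, RLE scaling, no filter, equal cells per mouse, no block and leaving out each mouse were alternatives.

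The proteasome genes, the wider list and the markers were chosen with earlier results of these data known. 1 gene of the wider list is not reported here and is left out of its counts. Named genes are those past the threshold, up to 10 per direction, or else the 3 with the smallest p per direction, with Psmb5, Psmb6, Psmb7, Psmb10, Psme1, Psme2 and genes under the filter always named. Psmd6 and the genes of cluster comparisons were named after their values were seen. Gene spans come from GENCODE vM21 (GRCm38). Depth, 4653719 to 7093148 UMIs per mouse, sets the precision, and free RNA was not removed again.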

Additional observations from a re-analysis of the deposited data

Results flagged for a closer look

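74 levels and sums were checked for 1 mouse far from the other 3 (a gap above Dixon's critical value), and chance alone gives about 1 such flag in 20 groups. Psmc2 in B cells was at 39.9 CPM in treated mouse 1, against 45.1 to 45.7 in the other mice. Psme4 in CD4+ T cells was at 90.7 in untreated mouse 1, against 61.1 to 65.4 in the others. Without that mouse the log2 fold change of Psme4 by treatment in CD4+ T cells turned from -0.25 to 0.021.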

How the results depend on the processing

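Counts of proteasome genes called by treatment stayed at 0 in every type and alternative run, as did the count for the difference between CD4+ T cells and B cells. Between CD4+ T cells and B cells 13 genes were called in the reported fit, 8 in DESeq2, 8 without the replicate block for the mouse, and 8 to 15 without 1 mouse. CD8+ against CD4+ T cells gave 1 to 3 without 1 mouse, and annotated plasmablasts against B cells 5 to 8. Cluster 9 alone, chosen after seeing the data and with few genes of any kind called, gave 0, with Psmd13 at -0.11, Psmb5 at -0.17 and Psme1 at -0.22. The median log2 fold change by treatment became 0.047 in B cells and 0.059 in CD4+ T cells with the trend with gene length removed, and 0.066 in CD4+ T cells with equal cells per mouse. Without 1 mouse it ran from 0.034 to 0.19 in annotated plasmablasts and from 0.18 to 0.31 in CD8+ T cells, highest in both without treated mouse 2. Psme4 by treatment in CD4+ T cells ran from -0.47 to 0.021 and Psmd14 in CD8+ T cells from -0.35 to 0.050 without 1 mouse. Left without mitochondrial and ribosomal protein genes in the total, the summed level was 0.442% in B cells, 0.534% in CD4+, 0.567% in CD8+ T cells, 0.493% in annotated plasmablasts and 0.621% in NK cells. The cause of these changes was not tested. Depth limits the assembly genes, of which 3 of 8 were tested by treatment in annotated plasmablasts.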
